A study of Mus musculus with 6 samples.

Results

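The cytochrome P450 genes of mouse gastrointestinal stromal tumours were compared between tumours of mice given imatinib and tumours of mice given vehicle. Members were chosen by name and by detection: a row of the deposited gene-level table counted if its name was CYP, 1 or 2 digits, a letter and digits, with Cyp51 left out, and it was kept if 3 or more of the 6 arrays detected one of its probes, at a detection p below 0.05. Of 31492 rows, 72 carried such a name, for 71 genes by current symbols. Of these rows 25 were kept, for 25 genes, among 14713 genes tested in all.

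Both groups were tumours of C57Bl/6 mice with the genotype Kit V558Δ/+, aged 6 weeks. This allele activates the receptor tyrosine kinase KIT, the usual driver of these sarcomas of the gut wall. The first group had received imatinib, an inhibitor of KIT, ABL and the PDGF receptors, by injection into the peritoneum, and the second had received the vehicle by the same route. Each group had 3 Illumina beadchip arrays, and total RNA of 1 tumour sample was hybridised to each. The labels give neither dose nor duration of the imatinib treatment. All 6 tumours carry the mutant Kit allele, so no tissue without it was compared, and no label says whether each sample is from an animal of its own. The p-values therefore measure the spread between these samples.

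Cytochrome P450 enzymes are haem proteins that insert an oxygen atom into their substrates. Most sit in the endoplasmic reticulum and take electrons from the reductase encoded by Por, and a few sit in mitochondria and take them from ferredoxin. Families named with low numbers mainly oxidise drugs and other foreign compounds, family CYP4 oxidises the end of fatty acid chains and leukotrienes, and several later families each handle a particular sterol, steroid, retinoid or vitamin. Liver and gut epithelium are the classical sites of the drug-metabolising members, and in humans CYP3A enzymes of the liver are a main route of imatinib clearance.

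Cyp2d9 was the single kept P450 gene that had an adjusted p below 0.05, and it rose 6.82-fold with imatinib (limma, Benjamini-Hochberg adjustment over all 14713 genes). The other 24 did not pass, although 13 of the 25 had an unadjusted p below 0.05, as did 26.4% of all genes, and 6 had an adjusted p below 0.1, as did 11.3% of all. Over all genes tested 1.58% passed, 0.523% of all genes as higher and 1.05% of all genes as lower with imatinib. So 1 call among 25 genes is a small count to set beside that background. Of the 25 genes, 19 had a higher mean with imatinib and 6 a lower one, against 54.3% higher among all genes. Their median log2 change was 0.58, against 0.04 over all genes tested. On the probe that stood for each gene, the groups did not overlap for 12 genes, against 31.9% of all genes. Of the 12, 8 were higher with imatinib, against 17.4% of all, and 4 lower, against 14.5%. Cyp2c54, among the higher, was detected on imatinib arrays alone, and Cyp2a4, among the lower, on vehicle arrays alone. Both were kept only through the group in which they are high, so the detection filter itself favours their separation. Both are also among the 13 genes counted above. Without vehicle 1, an array that lay lowest for 17 of the 25 genes, 17 of 25 had a higher mean against 57.2% of all genes, the median was 0.24, and none passed by limma, while 8 had an unadjusted p below 0.05. Nor did any pass without imatinib 1, imatinib 3 or vehicle 3 (8, 8 and 7 with an unadjusted p below 0.05), and without imatinib 2 there were 2. Without vehicle 2, on which the mean of the intestinal epithelium markers was highest though not each of them, 9 of the 25 passed, among 1397 of all genes, and the median was 0.79. Without vehicle 1 and imatinib 3 together, 16 of 25 had a higher mean and the median was 0.20.

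**Figure D1:**
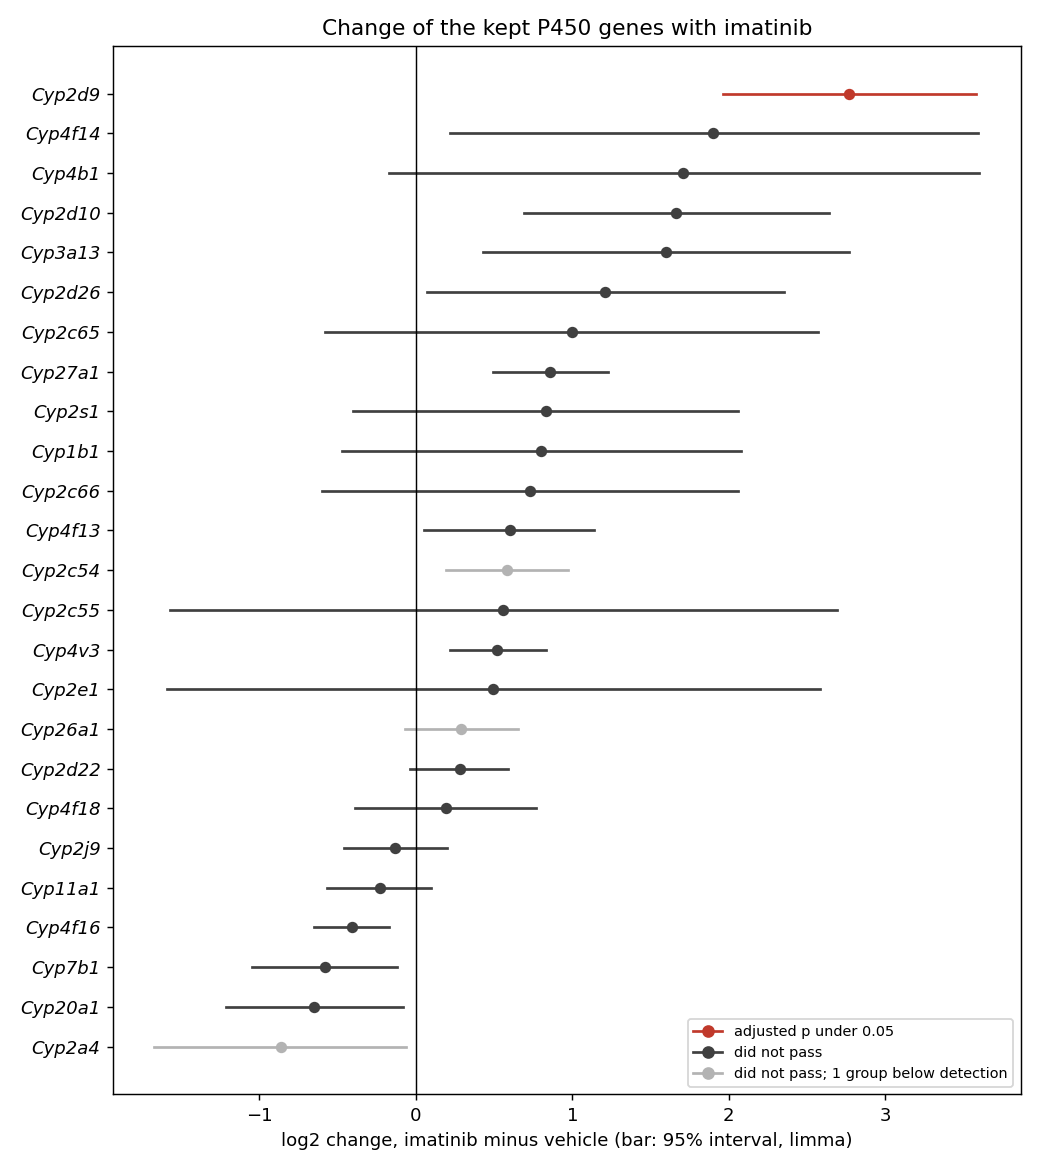
Log2 change (imatinib minus vehicle) of the 25 kept P450 genes, with points for limma's estimates and bars for 95% intervals from 3 imatinib and 3 vehicle arrays, and light grey for genes with all arrays of a group below detection. Cyp2d9, in red, has the highest change of the 25 at 2.77 and is the gene that passed.

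The kept genes lie in several clusters of the genome. By gene order in RefSeq (assembly GRCm38.p6, since the files name no build), Cyp2d9 and Cyp2d10 are neighbours with 0 protein-coding genes between them, and Cyp2d22 and Cyp2d26 lie near them on chromosome 15. Cyp2c55, Cyp2c65 and Cyp2c66 likewise follow each other on chromosome 19, and Cyp4f14 and Cyp4f13 on chromosome 17. Of the 25 genes, 22 had a promoter window in the RefSeq table, taken from 250 bases before to 50 after the annotated start, and Cyp2c54, Cyp2d22 and Cyp7b1 had none. The windows of Cyp2d9, Cyp2d10 and Cyp2d26 are shown because Cyp2d9 rose and the changes of Cyp2d10 and Cyp2d26 came next to it among the kept CYP2D genes, and that of Cyp1b1 because the gene is the best-known target of the aryl hydrocarbon receptor among those kept. Capitals mark TATAAA in the CYP2D windows and GCGTG, the core of the aryl hydrocarbon receptor element, in that of Cyp1b1. Each was found on the strand opposite to the gene, so it reads as its reverse complement. The windows are from build GRCm38.p6: Cyp2d9 at chr15:82452127-82452426 on the plus strand, Cyp2d10 at chr15:82407145-82407444 on the minus strand, Cyp2d26 at chr15:82794196-82794495 on the minus strand and Cyp1b1 at chr17:79715012-79715311 on the minus strand.
Cyp2d9: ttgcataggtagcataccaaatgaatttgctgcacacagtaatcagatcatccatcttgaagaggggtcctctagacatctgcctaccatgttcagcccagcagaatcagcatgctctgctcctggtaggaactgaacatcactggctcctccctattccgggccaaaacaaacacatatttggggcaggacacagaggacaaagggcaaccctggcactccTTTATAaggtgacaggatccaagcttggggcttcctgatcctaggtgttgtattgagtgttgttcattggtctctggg
Cyp2d10: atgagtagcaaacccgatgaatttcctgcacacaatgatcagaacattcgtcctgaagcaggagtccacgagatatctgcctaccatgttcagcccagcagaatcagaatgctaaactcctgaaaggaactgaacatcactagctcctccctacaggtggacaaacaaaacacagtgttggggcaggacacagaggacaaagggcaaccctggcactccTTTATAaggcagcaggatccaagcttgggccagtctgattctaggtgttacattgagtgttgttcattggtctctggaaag
Cyp2d26: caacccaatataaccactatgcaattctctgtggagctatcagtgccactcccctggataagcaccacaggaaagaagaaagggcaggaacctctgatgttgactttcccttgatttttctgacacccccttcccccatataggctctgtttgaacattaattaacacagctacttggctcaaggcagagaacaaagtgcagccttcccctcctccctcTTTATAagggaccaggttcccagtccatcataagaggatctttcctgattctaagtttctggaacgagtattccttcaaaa
Cyp1b1: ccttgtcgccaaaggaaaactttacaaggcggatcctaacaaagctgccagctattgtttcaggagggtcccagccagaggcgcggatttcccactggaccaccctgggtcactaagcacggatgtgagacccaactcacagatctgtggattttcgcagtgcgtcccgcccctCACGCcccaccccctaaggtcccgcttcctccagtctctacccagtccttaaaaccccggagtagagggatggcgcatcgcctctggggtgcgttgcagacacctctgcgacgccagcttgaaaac

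Aligned end to end, the windows of Cyp2d9 and Cyp2d10 were identical in 255 of 306 columns, or 83.3%. Those of Cyp2d9 and Cyp2d26 were identical in 53.6%, close to the median of 49.9% over all 231 pairs of windows. The next pair after Cyp2d9 and Cyp2d10 was Cyp2c65 and Cyp2c66, with 77.8%. The capitals begin 28 bases before the start in Cyp2d9 and 31 bases before it in Cyp2d10 and Cyp2d26. Searched on both strands, TATAAA was present in the windows of 9 of the 22 genes and in 13.6% of all 32851 windows. GCGTG was present in 6 of 22 and in 32.4% of all windows, and AGGTCA, the core of nuclear receptor elements, in 2 of 22 and in 16.3%. The HNF4 motif CAAAGTCCA was present in the window of Cyp2c65, 1 of 22, and in 0.475% of all windows. No motif of these 4 contains another. A match is a description of the letters in a window and not a measured binding site.

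Before the genes are taken in turn, some facts of the arrays bear on them. Between 21268 and 21439 probes were detected on the imatinib arrays, against 20684 to 20923 on the vehicle arrays, and the median probe was read from 43 beads. Genes of the tumour lineage were present: 8 of 9 listed markers of these tumours and of the interstitial cells of Cajal were measured, and Kit had log2 signals of 13.47 to 14.47 on the imatinib arrays, against 14.01 to 14.39 on the vehicle arrays. Genes of intestinal epithelium were present as well, 23 of 25 on the list, with Fabp1 and Fabp2 detected on no array. The summed linear signal of the epithelium list was 104926 to 131970 on the imatinib arrays, against 23227 on vehicle 1, 142092 on vehicle 2 and 80946 on vehicle 3. Set against its own 6-array mean, the list was at 0.20, 0.38 and 0.16 log2 units on imatinib 1 to 3, against -1.91, 1.13 and 0.04 on vehicle 1 to 3. Its value on vehicle 2 owes much to Sis, Apoa1, Apoa4, Reg3b and Reg3g. Each of these was highest there and had a lower mean with imatinib. Of the 17 genes with a higher mean, some were highest on vehicle 2, such as Krt20, and others on imatinib 3, such as Krt18 and Tff3. Of 12 hepatocyte markers 2 were measured, and Alb, Fgb, Tat and Tdo2 were detected on no array. The measured ones were Ttr, at 9.37, 9.65 and 10.19 on imatinib 1 to 3, against 7.42, 8.93 and 7.64 on vehicle 1 to 3 (change 1.74 ± 0.43, SE, limma adjusted p = 0.0788), and Trf, which changed by -0.22 ± 0.30 (0.656). Their summed signal was 1159 to 1491 on the imatinib arrays, against 703 to 1014 on the vehicle arrays. Cyp2d9 is known as a male-biased gene of mouse liver. The Y-linked genes Ddx3y and Kdm5d were detected on all 6 arrays and the 4 Xist probes on none. Exocrine pancreas had 2 of 12 markers measured, with a summed signal of 385 to 500 on the imatinib arrays, against 237 to 441, and steroid-making glands had 2 of 8, with 59 to 68 against 66 to 71. Passing markers were Cldn5 (1.98) and Sox17 (1.14), 2 of 8 measured endothelial genes, Fbln1 (0.82), 1 of 9 fibroblast genes, and Cd79a (1.65), 1 of 6 B cell genes, all higher with imatinib on the log2 scale. The endothelial gene Eng lay the other way, at -1.47 ± 0.29 without overlap of the groups, and did not pass (SE, limma adjusted p = 0.0581). None of 5 adipocyte genes passed. In tumour tissue, fewer cells of a type and less RNA per cell cannot be told apart.

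**Figure D2:**
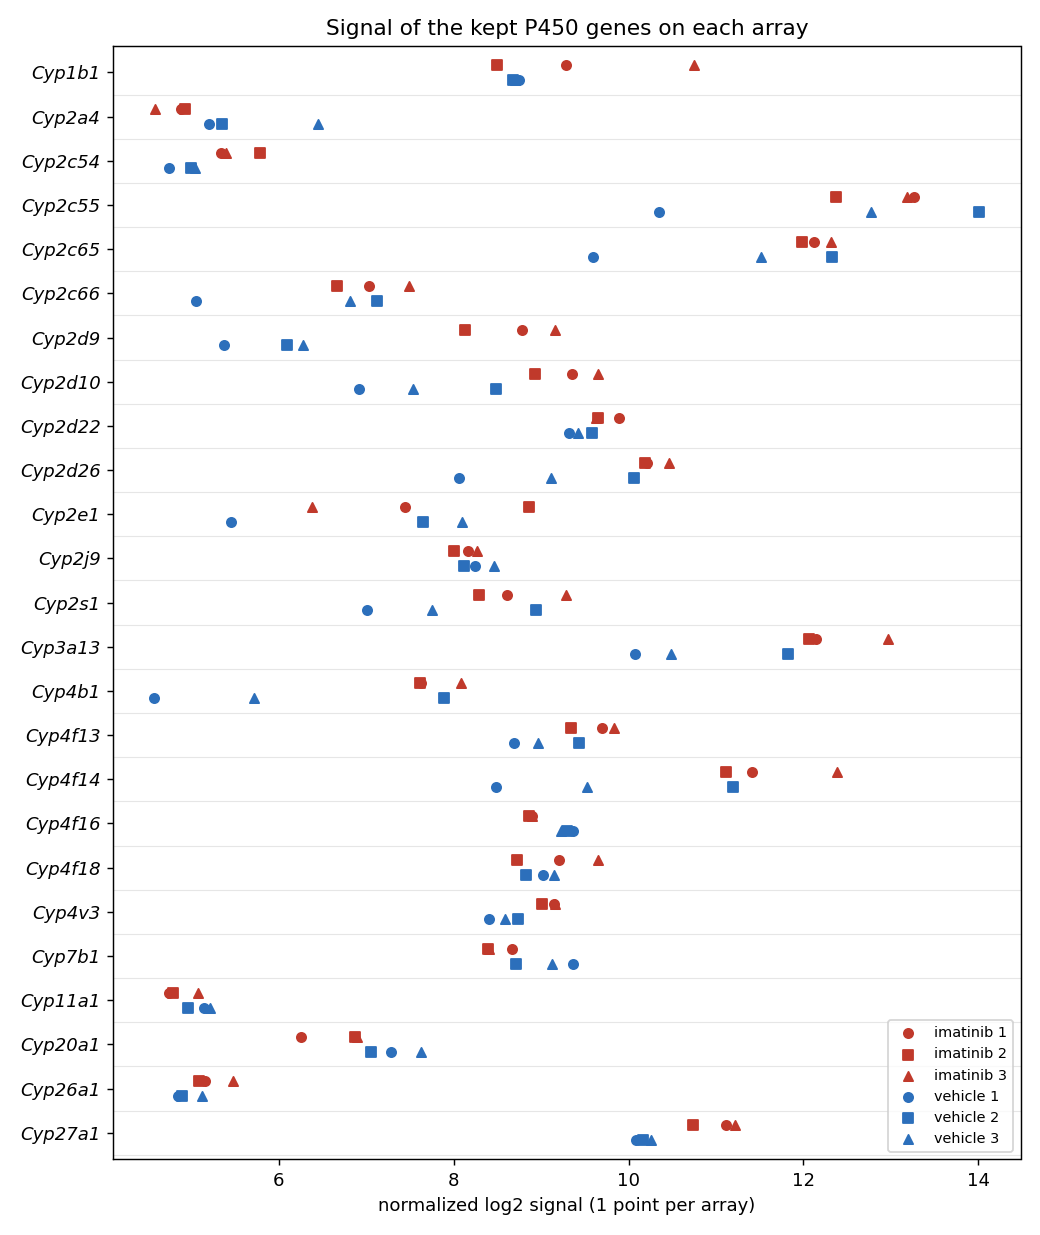
Normalized log2 signal of the 25 kept P450 genes, 1 point per array, with imatinib arrays in red above vehicle arrays in blue. For Cyp2d9 the imatinib arrays lie between 8.13 and 9.16 and the vehicle arrays between 5.38 and 6.28, while Cyp4b1 spreads from 4.58 to 7.89 within the vehicle group.

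The CYP2D genes had 4 kept members. Cyp2d9 encodes a testosterone hydroxylase known from male mouse liver. Its log2 signal was 8.78, 8.13 and 9.16 on imatinib 1 to 3, against 5.38, 6.10 and 6.28 on vehicle 1 to 3. All 3 imatinib arrays lay well above all 3 vehicle arrays, and the gene was detected on all 6. The means were 8.69 ± 0.52 with imatinib and 5.92 ± 0.48 with vehicle (SD, n = 3 arrays each), a log2 change of 2.77 ± 0.34 (SE, 95% interval 1.96 to 3.58, limma adjusted p = 0.0377). The change kept its direction in all 19 alternatives, from 2.04 to 3.05, and the gene passed in 12 of them. With 1 array left out it did not pass without vehicle 1 (2.48, limma adjusted p = 0.0872), without vehicle 3 (2.95, 0.157), without imatinib 1 (2.72, 0.126) or without imatinib 3 (2.54, 0.108), and no gene of the array passed in those fits. The mean of the 2 measured hepatocyte genes also lay apart in the groups, at 0.24, 0.62 and 0.28 on the imatinib arrays, against -0.68, 0.06 and -0.52 on the vehicle arrays. That came from Ttr (change 1.74), while Trf overlapped and went the other way (-0.22). The B cell list, with 6 of 8 genes measured, lay apart as well, at 0.31, 0.72 and 0.89, against -0.64, -1.01 and -0.27. Its sums were 865 to 1357, against 369 to 601. The endothelium list, with 8 of 10 genes measured, was at 0.20, 0.25 and 0.56, against -0.28, -0.36 and -0.37. Its summed signal overlapped, at 2930 to 3781 on the imatinib arrays, against 2535 to 3876 on the vehicle arrays. Pax5 of the B cell list and Kdr of the endothelium list were detected on no array. The macrophage list lay apart in the other direction, at 0.03, -0.17 and -0.26, against 0.20, 0.06 and 0.15. The part of these cell types in the Cyp2d9 signal was not tested. The gene had 1 kept probe, whose sequence is not used here, and signal shared with close copies of the CYP2D cluster was not tested.

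Cyp2d10, its neighbour, encodes another enzyme of the CYP2D group, whose human counterpart oxidises many drugs. It had 9.35, 8.93 and 9.65 on imatinib 1 to 3, against 6.92, 8.48 and 7.54 on vehicle 1 to 3. The groups did not overlap, but vehicle 2 lay closer to imatinib 2 than to either other vehicle array. The log2 change was 1.66 ± 0.40 (SE, limma adjusted p = 0.0773). Cyp2d26 had 10.21, 10.19 and 10.46 on the imatinib arrays, against 8.06, 10.06 and 9.11 on the vehicle arrays. Here vehicle 2 nearly reached the imatinib arrays, which were close together, and the change was 1.21 ± 0.47 (SE, limma adjusted p = 0.172). Its 2 further kept probes changed by 0.73 and 0.54. In both the groups overlapped, with vehicle 2 at 7.01 and 7.09 above imatinib 1 at 6.79 and 6.57. Cyp2d22 had 9.89, 9.65 and 9.63 with imatinib, against 9.32, 9.58 and 9.42 with vehicle, a narrow range on all 6 arrays and a change of 0.28 ± 0.13 (SE, limma adjusted p = 0.23). Without vehicle 1 the changes of Cyp2d10 and Cyp2d26 were 1.29 and 0.70, and that of Cyp2d22 was 0.21. Without vehicle 2, Cyp2d10 passed at 2.08 (limma adjusted p = 0.0304) and Cyp2d26 at 1.70 (0.0405). In all 3 genes vehicle 2 was the highest vehicle array and vehicle 1 the lowest, as in the epithelium list. In Cyp2d9 vehicle 3 was the highest vehicle array.

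The CYP2C genes had 4 kept members, of which 3 spread widely within the vehicle group. They encode enzymes that oxidise arachidonic acid and other fatty acids as well as drugs, and Cyp2c55, Cyp2c65 and Cyp2c66 are known from the mouse gut. Cyp2c55 had 13.26, 12.37 and 13.18 on the imatinib arrays, against 10.35, 14.01 and 12.77 on the vehicle arrays, so that vehicle arrays were both the lowest and the highest. Its change of 0.56 ± 0.88 (SE, 95% interval -1.57 to 2.69, limma adjusted p = 0.705) turned to -0.46 without vehicle 1. Cyp2c65 had 12.12, 11.98 and 12.32 with imatinib, against 9.59, 12.33 and 11.52 with vehicle. Vehicle 1 alone was far below the others, and the change of 1.00 ± 0.65 (SE, limma adjusted p = 0.361) was 0.22 without it. All 4 kept probes of Cyp2c65 had a higher mean with imatinib, by 0.82 to 1.00. Cyp2c66 had 7.03, 6.67 and 7.49 with imatinib, against 5.05, 7.12 and 6.81 with vehicle, a change of 0.73 ± 0.55 (SE, limma adjusted p = 0.421). It too was lowest on vehicle 1, where it was not detected, and its change was 0.09 without that array. Cyp2c54, an epoxygenase gene, was detected on the 3 imatinib arrays and on no vehicle array. It had 5.34, 5.79 and 5.40 with imatinib, against 4.75, 5.0 and 5.04 with vehicle. With the vehicle arrays set at the lowest detected signal its mean was at least 1.32-fold higher, a bound that leaves out the spread between arrays. The log2 change was 0.58 (95% interval 0.19 to 0.97, limma adjusted p = 0.0976). The gene was kept only through the imatinib arrays.

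Cyp3a13 encodes the CYP3A enzyme known from mouse intestine. It had 12.14, 12.06 and 12.97 on imatinib 1 to 3, against 10.07, 11.82 and 10.49 on vehicle 1 to 3. On the probe tested the groups did not overlap, although vehicle 2 lay just below imatinib 2. The change was 1.60 ± 0.48 (SE, 95% interval 0.43 to 2.77, limma adjusted p = 0.113), and its further kept probes changed by 0.96 and 1.71. On the probe that changed by 0.96 the groups overlapped, with vehicle 2 at 7.41 above imatinib 1 and 2 at 6.80 and 7.37. Without vehicle 1 the change of the tested probe was 1.24, and without vehicle 2 it was 2.11 and passed (limma adjusted p = 0.0331). No other CYP3A gene was kept, and Cyp3a11, the main CYP3A gene of mouse liver, was detected on no array.

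The remaining members of the second family differed from each other in their pattern. Cyp2e1, whose enzyme oxidises ethanol and other small molecules, had 7.44, 8.86 and 6.38 with imatinib, against 5.45, 7.65 and 8.10 with vehicle. Arrays of both groups were widely spread and overlapped, and the change of 0.49 ± 0.87 (SE, limma adjusted p = 0.736) was -0.31 without vehicle 1 and -0.15 without imatinib 2. The adipocyte list, with 5 of 9 genes measured, lay at 0.17, 0.91 and -0.78 on imatinib 1 to 3, against -1.35, 0.52 and 0.53 on vehicle 1 to 3. The part of such cells in the Cyp2e1 signal was not tested. Cyp2s1, expressed in epithelia outside the liver, had 8.61, 8.29 and 9.29 with imatinib, against 7.01, 8.94 and 7.75 with vehicle, a change of 0.83 ± 0.51 (SE, limma adjusted p = 0.331) that was 0.39 without vehicle 1. Its vehicle arrays again had vehicle 2 highest and vehicle 1 lowest. Cyp2j9, an arachidonic acid hydroxylase gene known from brain, lay between 8.0 and 8.27 on the imatinib arrays, against 8.12 to 8.46 on the vehicle arrays, and its change was -0.13 ± 0.14 (SE, 95% interval -0.46 to 0.20, limma adjusted p = 0.563). Cyp2a4, a steroid hydroxylase gene, was detected on all vehicle arrays and on no imatinib array. It had 4.88, 4.93 and 4.59 with imatinib, against 5.20, 5.35 and 6.45 with vehicle, where vehicle 3 stood apart. With the imatinib arrays set at the lowest detected signal its mean was at least 1.53-fold lower, a bound that leaves out the spread between arrays. The log2 change was -0.86 (95% interval -1.67 to -0.06, limma adjusted p = 0.17), and -0.47 without vehicle 3. The gene was kept only through the vehicle arrays. Cyp2a5 is a near-identical copy, so which of the 2 genes gave this signal is uncertain. The kept probe was 1 of 2 for Cyp2a4. None of the 4 probes named for Cyp2a5 was detected on more than 1 array, and signal shared between the 2 genes was not tested.

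Cyp1b1 encodes an enzyme that oxidises oestradiol and polycyclic aromatic hydrocarbons and is expressed mainly outside the liver. It had 9.29, 8.50 and 10.75 on imatinib 1 to 3, against 8.75, 8.68 and 8.70 on vehicle 1 to 3. The vehicle arrays were within 0.07 of each other, and the imatinib arrays lay on both sides of them over a range of 2.25. The change was 0.80 ± 0.53 (SE, 95% interval -0.47 to 2.08, limma adjusted p = 0.363), and it was 0.18 without imatinib 3. That array also stood apart in the neutrophil list, of which 4 of 10 genes were measured: the list lay at 0.35, -0.65 and 2.63 on imatinib 1 to 3, against -0.82, -1.25 and -0.25 on vehicle 1 to 3, with a summed linear signal of 358 to 6487, against 275 to 645. The neutrophil genes Ngp and Ltf were detected on no array, and the part of such cells in the Cyp1b1 signal was not tested. The fibroblast list, with all 9 genes measured, lay at 0.23, 0.24 and 0.28 on the imatinib arrays, against -0.80, -0.24 and 0.29 on the vehicle arrays, and did not set imatinib 3 apart. Neither Cyp1a1 nor Cyp1a2, the further genes of the first family and targets of the aryl hydrocarbon receptor, was detected on any array. Of 9 listed targets of this receptor 5 were measured and none passed, with a median change of 0.51. The repressor gene Ahrr changed by 0.51 ± 0.32 (SE, limma adjusted p = 0.343), and the receptor gene Ahr itself had a probe detected on no array.

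Family CYP4 had 6 kept genes. Cyp4b1, which oxidises medium-chain fatty acids and activates some plant toxins, had 7.63, 7.62 and 8.08 with imatinib, against 4.58, 7.89 and 5.72 with vehicle. It was not detected on vehicle 1, while vehicle 2 lay among the imatinib arrays, and the change of 1.71 ± 0.78 (SE, limma adjusted p = 0.221) was 0.97 without vehicle 1. Cyp4f14, whose enzyme inactivates leukotriene B4, had 11.41, 11.12 and 12.38 with imatinib, against 8.48, 11.19 and 9.53 with vehicle. Vehicle 2 again lay with the imatinib arrays, and the change of 1.90 ± 0.70 (SE, limma adjusted p = 0.155) was 1.27 without vehicle 1. Its neighbour Cyp4f13 had 9.70, 9.34 and 9.83 with imatinib, against 8.69, 9.43 and 8.96 with vehicle, the same order over a narrower range, and changed by 0.60 ± 0.23 (SE, limma adjusted p = 0.166). Without vehicle 2 both Cyp4b1 and Cyp4f14 passed at 2.63 (limma adjusted p = 0.0304 and 0.0392), and Cyp4f13 did not.

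The other 3 CYP4 genes varied less. Cyp4v3, the mouse counterpart of a fatty acid hydroxylase gene mutated in a human retinal dystrophy, had 9.15, 9.01 and 9.16 with imatinib, against 8.40, 8.74 and 8.59 with vehicle. Each group was tight and they did not overlap. The change, 0.52 ± 0.13 (SE, limma adjusted p = 0.0774), was 0.43 without vehicle 1 and passed without vehicle 2 at 0.61 (0.0478). Cyp4f16, another member of the CYP4F cluster, had 8.90, 8.86 and 8.90 with imatinib, against 9.36, 9.30 and 9.23 with vehicle. Its change of -0.41 ± 0.10 (SE, limma adjusted p = 0.0766) was opposite in sign to those of Cyp4f13 and Cyp4f14, and its further kept probes changed by -0.58 and -0.61. It passed with the mean of the kept probes, at -0.53 (limma adjusted p = 0.0495). Cyp4f18, a leukotriene B4 hydroxylase gene of mouse neutrophils, had 9.20, 8.73 and 9.65 with imatinib, against 9.02, 8.83 and 9.15 with vehicle. Imatinib 3 was the highest array, as for the neutrophil list though not for its gene Mmp9. The change of 0.19 ± 0.24 (SE, limma adjusted p = 0.629) was -0.03 without that array. Its further kept probes changed by 0.14 and -0.05. On the latter, detected on 3 arrays, imatinib 3 was the lowest array, at 4.57.

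In families CYP7, CYP11, CYP26 and CYP27, whose enzymes act on sterols, steroid precursors or retinoids, 4 genes were kept and none passed. On the list of steroid and cholesterol hydroxylases 3 of 12 genes were measured, with a median change of -0.23, and of 6 vitamin A and D hydroxylases Cyp26a1 was the 1 measured. Cyp27a1, the mitochondrial sterol hydroxylase that makes an oxysterol and bile acid precursor, had 11.12, 10.74 and 11.22 with imatinib, against 10.08, 10.17 and 10.26 with vehicle. All imatinib arrays were above all vehicle arrays, which were within 0.17 of each other. The change was 0.86 ± 0.15 (SE, 95% interval 0.49 to 1.23, limma adjusted p = 0.0534), just short of the threshold. It passed in 10 of 19 alternatives, with values from 0.72 to 1.00 in all of them, and was 0.81 without vehicle 1. Its 2 further kept probes changed by 0.88 and 0.95. Macrophages are a known source of this enzyme. All 9 genes of the macrophage list were measured, with Adgre1 also listed under its older symbol Emr1, and none passed. The list lay at 0.03, -0.17 and -0.26 with imatinib, against 0.20, 0.06 and 0.15 with vehicle. Its summed linear signal was 7878 to 11871 on the imatinib arrays, against 12637 to 13715 on the vehicle arrays. Of the 9 macrophage genes 7 had a lower mean with imatinib and 2 a higher one, Cd68 (0.04) and Mertk (0.86, without overlap of the groups). The part of macrophages in the Cyp27a1 signal was not tested. Nr1h3, the receptor gene that responds to oxysterols, had 8.22, 7.75 and 8.21 with imatinib, against 6.99, 7.60 and 6.94 with vehicle, and changed by 0.89 ± 0.23 (SE, limma adjusted p = 0.0854).

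Cyp7b1, which adds a hydroxyl group to oxysterols on the way to bile acids, had 8.67, 8.39 and 8.40 with imatinib, against 9.37, 8.71 and 9.12 with vehicle. Imatinib 1 and vehicle 2 were close but the groups did not overlap, and the change was -0.58 ± 0.19 (SE, limma adjusted p = 0.131). Without vehicle 2 it passed at -0.76 (0.0454). Cyp11a1, the mitochondrial enzyme that starts steroid synthesis, was detected on 1 imatinib and 2 vehicle arrays, between 4.75 and 5.08 with imatinib, against 4.96 to 5.22 with vehicle. Its change of -0.23 ± 0.14 (SE, limma adjusted p = 0.322) lies near the lowest detectable signal, and Star, Hsd3b1 and Nr5a1, which mark steroid-making cells, were detected on no array. Cyp26a1, which breaks down retinoic acid, was detected on the 3 imatinib arrays alone, between 5.09 and 5.48, against 4.85 to 5.12 with vehicle. With the vehicle arrays set at the lowest detected signal its mean was at least 1.09-fold higher. This bound leaves out the spread between arrays, and the groups overlapped, with imatinib 2 at 5.09 below vehicle 3 at 5.12. The log2 change was 0.29 ± 0.15 (SE, limma adjusted p = 0.261), and it was 0.00 in both the deposited gene-level and processed tables. The gene was kept only through the imatinib arrays. Cyp20a1, a conserved gene with no established substrate, had 6.25, 6.87 and 6.90 with imatinib, against 7.28, 7.05 and 7.63 with vehicle. No value was shared between the groups' ranges, and the gene changed by -0.65 ± 0.23 (SE, limma adjusted p = 0.151). Its second probe changed by -0.49, and there the groups overlapped, with imatinib 3 at 6.34 above vehicle 2 at 6.28.

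**Figure D3:**
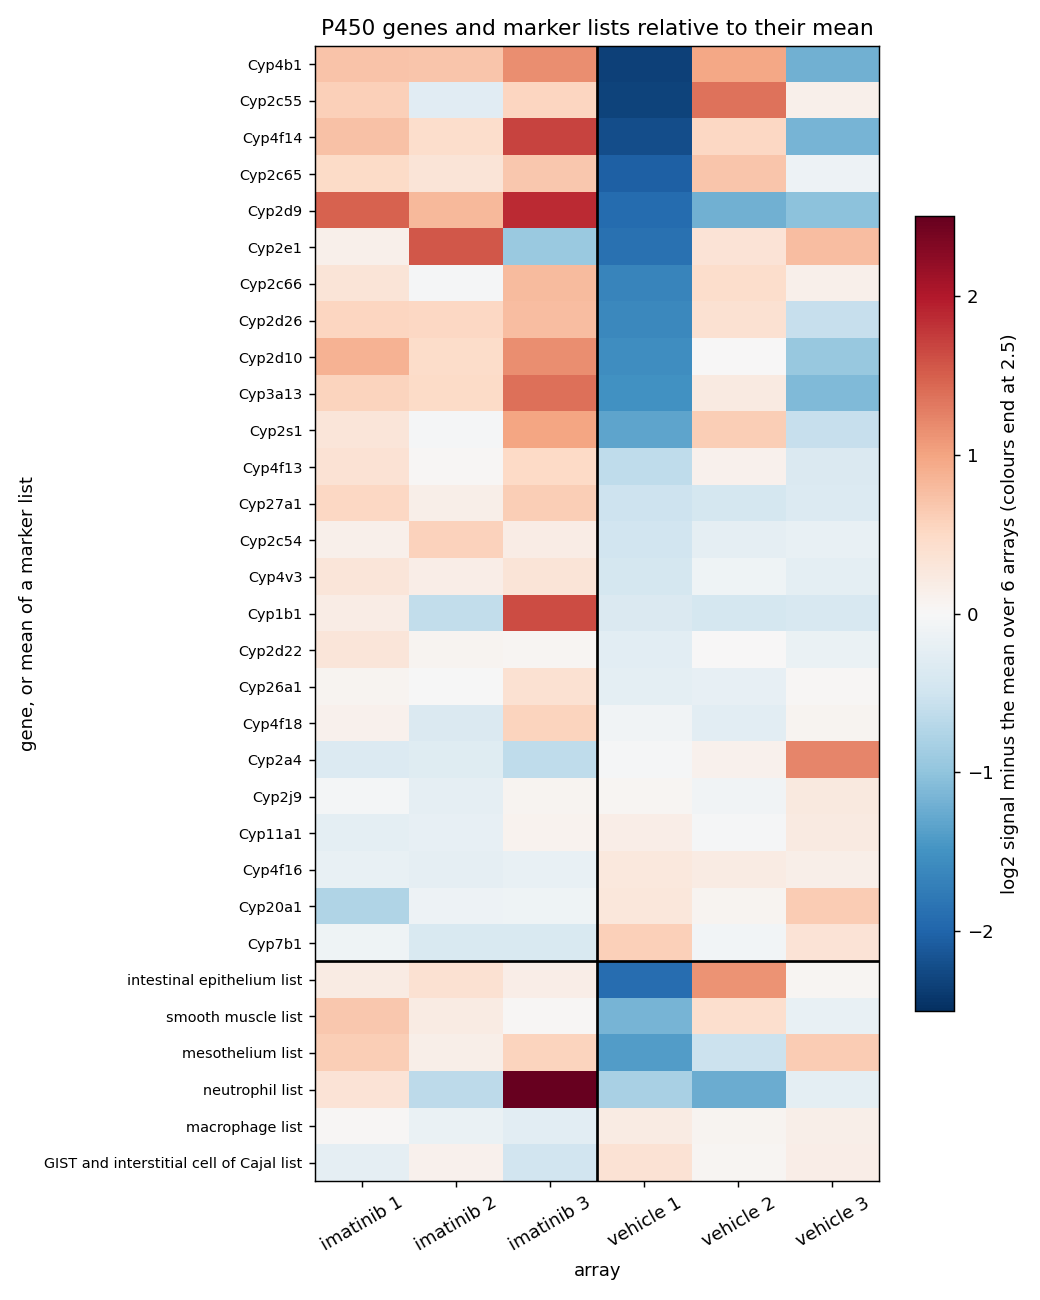
Log2 signal of each kept P450 gene minus its mean over the 6 arrays (colour), with imatinib arrays left of vehicle arrays and genes ordered by their value on vehicle 1. The 6 rows at the bottom are means of marker lists. The upper genes and the epithelium list, at -1.91, are low on vehicle 1 and mostly high on vehicle 2, where Cyp2d9 is low.

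The kept genes thus differed in how they ran across the arrays. Of 25 genes 17 were lowest on vehicle 1, against 20.3% of all genes tested. In 12 of 25 vehicle 2 was above vehicle 3 and vehicle 3 above vehicle 1, the order of the epithelium list, against 19.7% of all genes. The 6 values of 12 genes spanned 2 or more log2 units, against 7.42% of all genes. Of these 12, 11 were lowest on vehicle 1, all but Cyp1b1, and in 8 vehicle 2 lay within or above the range of the imatinib arrays. None of the 23 epithelial genes measured passed, and 17 had a higher mean with imatinib, with a median of 1.01. Hnf4a, a transcription factor of gut and liver epithelium, had 12.23, 11.76 and 12.22 with imatinib, against 9.68, 11.99 and 10.81 with vehicle. Other lists were also low on vehicle 1, at -1.16 for 6 of 8 smooth muscle genes, -1.40 for 7 of 7 mesothelium genes and -1.35 for 5 of 9 adipocyte genes. The tumour lineage list was at 0.36 there. The part of the cell mixture in the changes of the P450 genes was not tested.

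**Figure D4:**
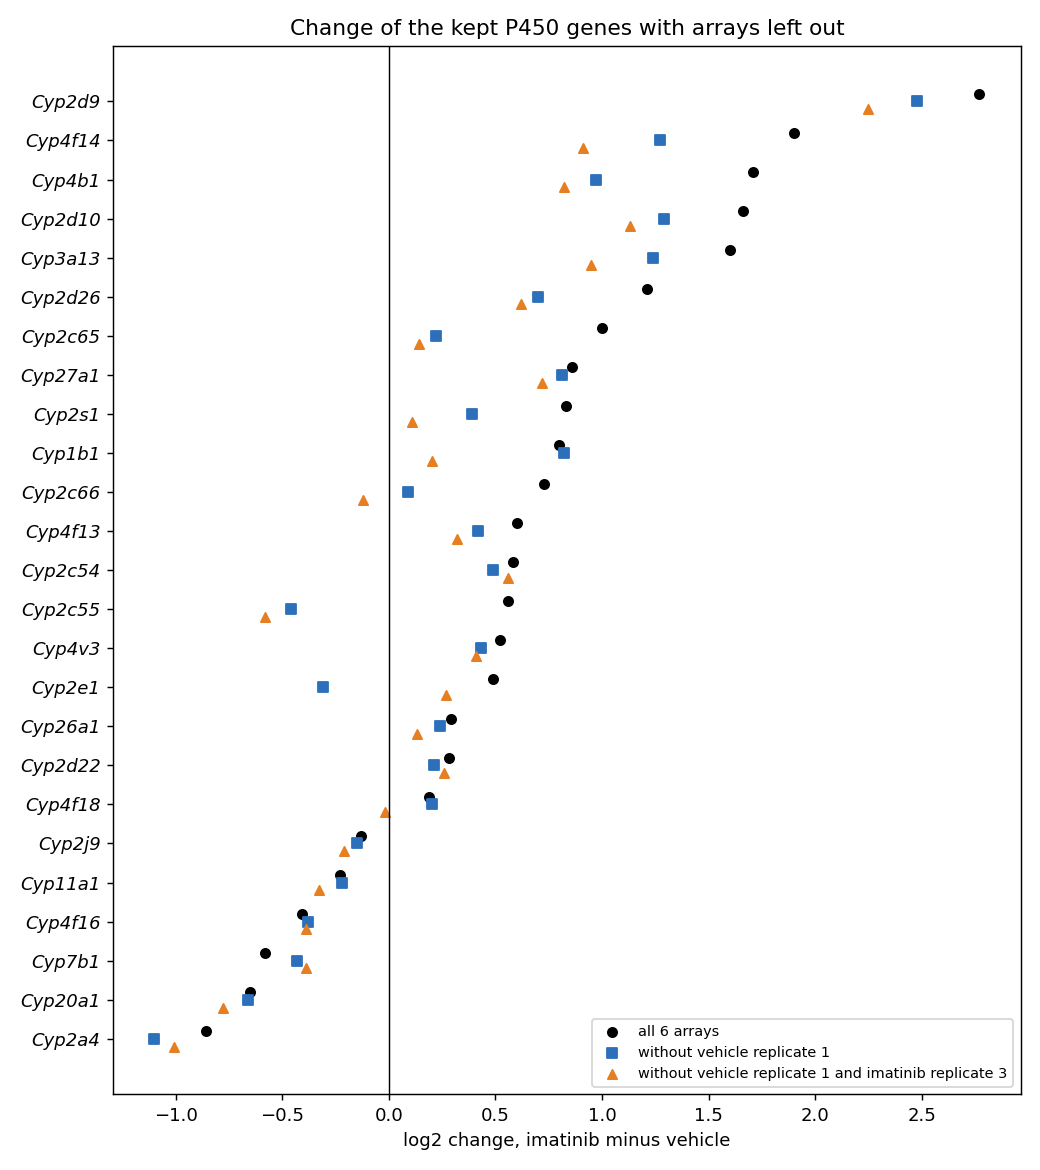
Log2 change (imatinib minus vehicle) of the 25 kept P450 genes with all 6 arrays (black), without vehicle 1 (blue) and without vehicle 1 and imatinib 3 (orange). Cyp2d9 is at 2.77, 2.48 and 2.25, Cyp27a1 at 0.86, 0.81 and 0.72, and Cyp2c55 at 0.56, -0.46 and -0.58.

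Of the 47 rows that were not kept, 35 had no probe detected on any array, 8 had a probe detected on 1 array and 4 on 2. Those with none included Cyp17a1, Cyp19a1 and Cyp21a1 of steroid synthesis, Cyp7a1 of bile acid synthesis, Cyp24a1 and Cyp27b1 of vitamin D metabolism, and Cyp2b10 and Cyp2c29, which are typical of liver. Just outside the limit, with 2 arrays detected, were Cyp26b1, Cyp2b9, Cyp2r1 and Cyp4f15. Their signals ran from 4.66 to 5.46 on the imatinib arrays, against 4.44 to 5.85 on the vehicle arrays. Just inside it, with 3, were Cyp2a4, Cyp2c54, Cyp11a1 and Cyp26a1, described above. The lowest detected signal was 5.04 to 5.06 on the imatinib arrays, against 5.10 to 5.14 on the vehicle arrays. Of the 25 kept genes 19 were detected on all 6 arrays. Over the 22 detected at least once in each group, 17 had a higher mean with imatinib and the median change was 0.66.

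Genes that work with P450 enzymes were taken from lists. Of 18 electron donors and haem synthesis genes 16 were measured and none passed, 11 having a higher and 5 a lower mean, with a median change of 0.06. Cyb5r3, the reductase of cytochrome b5, changed by -0.43 ± 0.11 (SE, limma adjusted p = 0.0891), and Alad, of haem synthesis, by 0.71 ± 0.21 (0.103). Por had 9.93, 9.71 and 10.13 with imatinib, against 9.41, 9.89 and 9.46 with vehicle, with overlapping groups. Of 21 regulators 16 were measured and none passed, with 13 higher and a median of 0.63. Besides Nr1h3, the retinoic acid receptor gene Rarb had the smallest p, changing by 0.94 ± 0.39 (SE, limma adjusted p = 0.189). The drug sensor genes Nr1i2 and Nr1i3 changed by 0.76 and -0.27.

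Further lists held enzymes that act after or beside P450, to be read against the 1.58% of all genes that passed. Of 46 conjugating and other drug metabolism genes 40 were measured, none passed, 34 had a higher and 6 a lower mean, against 54.3% higher among all genes, and the median was 0.50. The alcohol dehydrogenase gene Adh1 had 8.57, 8.73 and 9.47 with imatinib, against 5.86, 7.59 and 7.07 with vehicle, a change of 2.09 ± 0.47 (SE, limma adjusted p = 0.0711). The sulfotransferase gene Sult1a1 had 12.63, 12.31 and 13.21 with imatinib, against 10.25, 11.91 and 11.22 with vehicle, a change of 1.59 ± 0.44 (0.0976). In both the groups did not overlap, and vehicle 1 was the lowest array. Of 14 prostanoid and leukotriene genes 11 were measured and none passed, with 8 higher and a median of 0.36. Alox12 changed by 0.84 ± 0.17 (SE, limma adjusted p = 0.0581) and Hpgd, which degrades prostaglandins, by 1.18 ± 0.27 (0.0718).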

How the data were processed

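Total RNA of 6 tumours was labelled with biotin and hybridised to Illumina beadchips, per the labels' protocols. Per the file headers, the deposited probe table holds an intensity for each of 45281 probes, the count of beads, the bead standard error as a signal, and a detection p-value. The authors' 2 other deposited tables hold log2 values: a gene-level table that is not normalized, and a processed table whose columns share a median of 5.53, with an unstated target. Partek was used per the submitters' processing notes; the sources used here do not name the scanner software. Probes were linked to gene-level rows by arithmetic: the log2 mean of a run of neighbouring probes equalled the row on all 6 arrays within 8e-06 (6.2e-05 from 10 upward), for 31492 rows by exactly 1 run. Names were updated through RefSeq (GRCm38.p6).

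Intensities were corrected by normexp from detection p-values (limma 3.58.1, neqc, offset 16), quantile normalized and put on the log2 scale. Among 21395 probes detected (p under 0.05) on 3 or more arrays, the one with the highest mean stood for its gene. The 3 imatinib and 3 vehicle arrays, grouped by sample title, were compared with lmFit and eBayes. Folds of dim genes are understated through the offset, and the number of arrays limits the precision. Where a group was wholly undetected, each of its arrays was set to the higher of its own value and its lowest detected signal. The fold is then a bound for the means of these arrays and does not take in the spread between them. The naming rule gave all 6 array values for Cyp2d9, Cyp1b1, members that were called, members without overlap that changed by 0.5 or more, those spanning 2 or more log2 units, and the one with the highest mean in each family; values of further members were added. From each list, up to 4 called genes, or without a call the 2 with the smallest p, could be named, and some further genes (Por, Nr1i2, Nr1i3, Hnf4a, Kit) for their role. The members, lists and rules were chosen with earlier results of these data known. The fit was tested on simulated data. Replicate numbers were not taken to pair samples, since no label says so and same-numbered deviations correlated at -0.11, -0.31 and 0.02. With 3 arrays per group these values cannot exclude a pairing.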

Additional observations from a re-analysis of the deposited data

How the results depend on the processing

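Over 19 alternatives and 25 genes, 416 of 469 values kept direction and side of the threshold, 36 passed only under an alternative (17 with array weights, 8 without vehicle 2), 7 were those of Cyp2d9 no longer passing, and 10 reversed. The count of genes passing, 232, became 355 with offset 50, 484 with cyclic loess, 408 with the mean of kept probes, 432 with a variance trend, 382 and 385 with the deposited gene-level and processed tables, 7585 with array weights (whose estimation stopped before converging), 1668 at an adjusted p of 0.1, and 0 without a detection filter, with the replicate block, or without vehicle 1 and imatinib 3 (limma; 5183, 2900 and 2007 genes had an unadjusted p under 0.05). It ranged from 0 to 1397 with 1 array left out. For the P450 genes the count of 1 became 2 with uncorrected intensities, offset 50, cyclic loess or a variance trend, 3 with the mean of kept probes or either deposited table, 18 with array weights, 6 at an adjusted p of 0.1, and 0 without a detection filter, with the replicate block (11 with an unadjusted limma p under 0.05) or without vehicle 1 and imatinib 3, and ranged from 0 to 9 with 1 array left out. Cyp2d9 stayed at 2.77 without a detection filter (limma adjusted p = 0.0593) and with the replicate block (0.147), was 2.25 without vehicle 1 and imatinib 3 (0.212), and ranged from 2.48 to 3.05 with 1 array left out. Whether same-numbered samples pair is not known, so the values with the block stand as a limit of the result. With arrays left out, reversals gave Cyp2c55 a range of -0.58 to 1.38 (-0.46 without vehicle 1), Cyp2c66 -0.12 to 1.13, Cyp2e1 -0.31 to 1.09 (-0.15 without imatinib 2) and Cyp4f18 -0.03 to 0.42 (-0.02 without vehicle 1 and imatinib 3). Also reversed were Cyp2e1 at -0.58 with array weights and Cyp11a1 at 0.03 and 0.02 in the deposited gene-level and processed tables. The fits without arrays had fewer samples; otherwise the cause was not tested. Below the lowest detected signal a difference is measured only as a bound.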

Other observations

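Some P450 genes stand under other row names and so were not taken by the name rule. Cyp2d12, another gene of the CYP2D cluster, had log2 signals of 6.53, 5.79 and 7.12 on imatinib 1 to 3, against 4.42, 5.19 and 5.08 on vehicle 1 to 3. It was detected on all 3 imatinib arrays and on 1 vehicle array, the groups did not overlap, and the change of 1.58 ± 0.37 (SE) did not pass (limma adjusted p = 0.0749). Cyp2d40 had 6.34, 5.96 and 6.64 with imatinib, against 5.81, 6.06 and 6.05 with vehicle, a change of 0.34 ± 0.19 (limma adjusted p = 0.296). Cyp2c67 had 6.27, 6.50 and 6.07 with imatinib, against 4.83, 7.10 and 5.74 with vehicle, the same vehicle order as Cyp2c55, Cyp2c65 and Cyp2c66. Cyp51, the cholesterol synthesis enzyme, had 7.55, 8.37 and 7.49 with imatinib, against 8.18, 8.86 and 8.55 with vehicle, a change of -0.73 ± 0.29 (limma adjusted p = 0.177). Ptgis and Tbxas1, the prostacyclin and thromboxane synthases, are P450 enzymes by structure. Ptgis had 9.18, 9.20 and 10.09 with imatinib, against 8.92, 7.92 and 9.08 with vehicle, and changed by 0.86 ± 0.38 (limma adjusted p = 0.215). Tbxas1 had 8.48, 8.45 and 7.95 with imatinib, against 8.78, 8.52 and 8.78 with vehicle, and changed by -0.40 ± 0.18 (limma adjusted p = 0.215). None of these genes passed, and they were chosen here by family after their values were seen.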
